A study of Homo sapiens with 4 samples.

Results

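The genes described here are those of fibroblast growth factor (FGF) signalling: the FGF ligands, their receptors and receptor partners, and the feedback inhibitors and ETS factors that are switched on by the pathway. They were chosen by symbol, and 45 of the 25690 gene rows of the table belong to them. PolyA RNA was sequenced from H9, a human embryonic stem cell line, on day 7, in cells that the series describes as non-neural ectoderm. The 2 WT libraries were compared with 2 libraries whose genotype label is TFAP2A knockout; TFAP2A encodes an AP-2 transcription factor of the early ectoderm. The titles of the knockout libraries name TFAP2C in place of TFAP2A. Their columns in the deposited counts are named 2AKO, which goes with the genotype label. Directions below are those of the libraries labelled knockout. The sources used here name no clone, guide or growth conditions. Nor do they say whether libraries of a genotype are separate cultures, and the p-values therefore reflect only how far these libraries differ, which may be technical.

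FGFs are secreted ligands that bind receptor tyrosine kinases together with heparan sulfate on the cell surface. The receptors signal through adaptors to RAS and the kinase ERK, and ERK activity switches on the ETS factors ETV1, ETV4 and ETV5 as well as inhibitors such as the Sprouty (SPRY) and SPRED proteins and the phosphatase DUSP6, which damp the signal. In the early embryo, FGF signals act with BMP and WNT on the choice between neural, placodal, neural crest and epidermal fates.

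The libraries held 17838204 to 21797850 counts. A gene with a count of 0 could still be present at up to 3 counts, or 0.138 to 0.168 CPM (counts scaled to library size), for counting error only. TFAP2A itself was at 171 and 198 CPM in WT and at 133 and 121 CPM in the libraries labelled knockout, so its transcript was still abundant there (edgeR log2 fold change -0.54, adjusted p = 0.000125). TFAP2C, the gene in the titles, was at 27.5 and 30.6 CPM in WT and at 8.91 and 5.77 CPM in those labelled knockout (log2 fold change -1.99, adjusted p = 6.66e-06). Markers of non-neural ectoderm were all detected, with 14 of 14 tested, of which 9 fell and 0 rose. TFAP2A and TFAP2C are themselves on this list and among the 9, so their falls add nothing to the values just given. The summed level of the list was 3487 to 3789 CPM in WT and 2476 to 2573 CPM in the knockout-labelled libraries. Markers of other cell types moved as well. Neural ectoderm markers summed to 130 to 131 CPM in WT and 298 to 338 CPM in the libraries labelled knockout. The 6 of 12 with enough counts to test were higher there. CDH2 alone made up most of these sums, at 110 and 112 CPM in WT and 265 and 248 CPM in those labelled knockout. RAX was at 0 throughout, and OTX2, SIX3, SIX6, HES5 and ZIC1 were at most at 0.34 CPM. SOX1 had enough counts only in the libraries labelled knockout. Amnion and trophoblast markers summed to 1787 to 1930 against 133 to 201 CPM (5 of 7 tested fell, 2 rose). Mesoderm and endoderm markers summed to 336 to 364 against 80.2 to 89.5 CPM (4 of 7 fell). HAND1 alone made up most of this sum, at 323 and 353 against 76.9 and 71.9 CPM. T was at 0 throughout, and MESP1 and SOX17 were at most at 0.154 CPM. Neural crest markers summed to 332 to 351 against 88.9 to 96.8 CPM (3 of 5 fell). Of this, TFAP2B alone was at 261 and 287 against 45.7 and 40.5 CPM. SOX10, FOXD3 and PAX3 were at most at 0.205 CPM. Endothelial and blood markers summed to 66.6 to 67.2 against 20.7 to 22.4 CPM (5 of 6 fell), with PECAM1 and HBZ at 0 throughout. Mesenchyme markers summed to 11800 to 12175 against 9500 to 10906 CPM (6 of 11 fell, 1 rose), and none of the 4 testable pluripotent cell markers passed. Over all genes tested, 21.9% were higher and 22.3% lower. Of the markers that fell, CGA, CYP19A1, CDH5, RUNX1, AFP and PAX7 had enough counts in both libraries only in WT, so that their calls are partly set by the filter. The part of these cells in the FGF results was not tested, and in bulk RNA fewer cells of a type and less RNA per cell cannot be told apart.

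Of the 45 genes, 31 had enough counts to test, and 20 of these passed: 13 were higher and 7 lower in the libraries labelled knockout. The edgeR quasi-likelihood test was used, its p-values were adjusted by Benjamini and Hochberg's method over all 15643 genes tested, and the threshold was 0.05. Over all genes tested, 44.2% passed, 21.9% higher and 22.3% lower. The FGF genes thus had a share of 41.9% higher against the 21.9% of all genes, and a share of 22.6% lower, close to the 22.3% of all genes. Their median log2 fold change was 0.28, against 0.00 for all genes. Of the 31 tested, 5 were higher and 6 lower by a log2 change of at least 1, against 4.49% and 6.77% of all genes tested. FGF5 and FGF3 are among these. FGF5 reached the filter's minimum (0.537 CPM) only in the libraries labelled knockout and FGF3 only in WT, so both had to differ, and no p-value is given for them. Among the other 29 genes, 12 were higher and 6 lower. These counts describe the genes and do not test the group. Where libraries of the genotypes are said below to lie apart, this describes the values and does not back a call. With 2 libraries per genotype, genes that did not pass, such as FGFR1, lie apart as well.

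**Figure D1:**
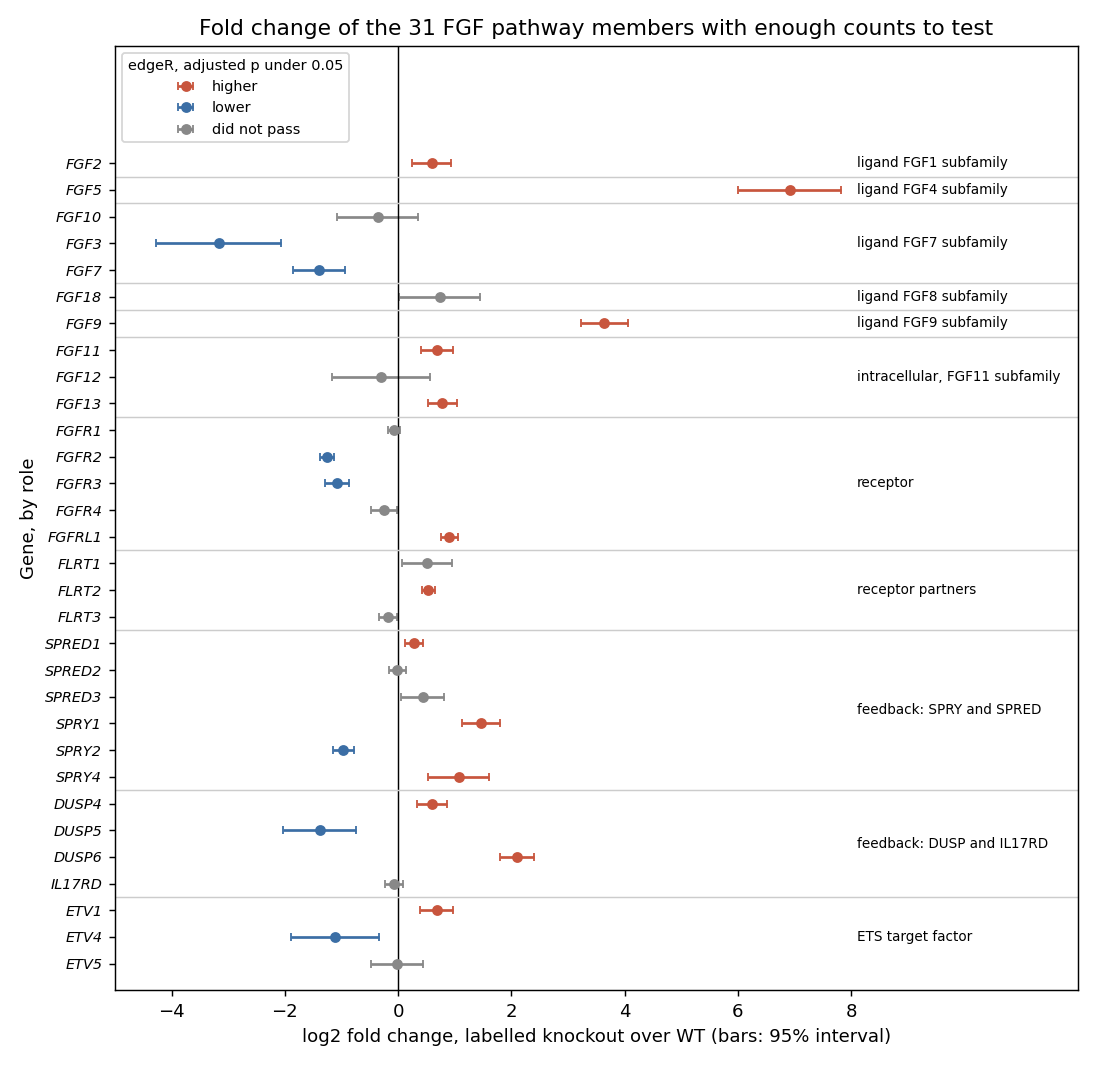
Log2 fold changes (horizontal axis, libraries labelled knockout over WT) of the 31 FGF pathway genes with enough counts, ordered by role, with 95% intervals from the edgeR fit as bars and colours for the call. FGF5 and FGF9 lie farthest to the right at 6.91 (a value that rests on 2 WT counts) and 3.64, FGF3 farthest to the left at -3.17, and the receptor genes FGFR2 and FGFR3 lie below 0.

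Promoters of some genes with large changes are shown first, since the gene named in the genotype label encodes a DNA-binding factor and ETS factors are targets of the pathway. Among called genes with an entry in the RefSeq promoter table (GRCh38.p14, where 33 of the 45 genes matched), the 3 that rose most and the 3 that fell most are printed. FGF9 (log2 fold change 3.64) and DUSP5 (-1.39) changed more than some printed genes but had no entry. Each line gives the 250 bases upstream of the gene start, 5′ to 3′ on the gene's strand. Capitals mark GCCNNNGGC, the core of the AP-2 binding motif, whose reverse complement has the same form, and CGGAAG or its reverse complement CTTCCG, a core of the ETS motif. The windows are chr4:80266338-80266587 for FGF5 (plus strand), chr12:89352502-89352751 for DUSP6 (minus strand), chr4:123396545-123396794 and chr4:123398136-123398385 for the 2 starts of SPRY1 (plus strand), chr11:69819417-69819666 for FGF3 (minus strand), chr15:49422992-49423241 for FGF7 (plus strand) and chr10:121598445-121598694 for FGFR2 (minus strand, the first listed of its 5 starts; for FGF5 the first of 2).
FGF5: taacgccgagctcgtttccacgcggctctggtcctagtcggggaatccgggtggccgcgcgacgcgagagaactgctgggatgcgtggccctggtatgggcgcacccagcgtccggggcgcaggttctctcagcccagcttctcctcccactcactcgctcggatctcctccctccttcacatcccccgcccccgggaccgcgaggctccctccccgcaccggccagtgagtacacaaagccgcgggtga
DUSP6: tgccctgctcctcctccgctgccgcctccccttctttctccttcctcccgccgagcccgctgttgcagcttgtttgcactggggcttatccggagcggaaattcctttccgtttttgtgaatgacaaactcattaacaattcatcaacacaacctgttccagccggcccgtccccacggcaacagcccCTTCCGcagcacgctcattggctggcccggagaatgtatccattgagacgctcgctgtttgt
SPRY1 first start: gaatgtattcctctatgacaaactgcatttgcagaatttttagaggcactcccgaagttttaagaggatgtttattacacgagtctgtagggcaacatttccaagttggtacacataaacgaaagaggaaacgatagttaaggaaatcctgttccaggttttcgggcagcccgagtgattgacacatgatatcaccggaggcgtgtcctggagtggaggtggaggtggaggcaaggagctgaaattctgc
SPRY1 second start: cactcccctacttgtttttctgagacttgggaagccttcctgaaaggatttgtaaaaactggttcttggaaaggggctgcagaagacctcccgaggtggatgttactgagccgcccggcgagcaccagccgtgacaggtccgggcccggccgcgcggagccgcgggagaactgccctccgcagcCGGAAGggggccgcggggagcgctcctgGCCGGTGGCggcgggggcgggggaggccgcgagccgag
FGF3: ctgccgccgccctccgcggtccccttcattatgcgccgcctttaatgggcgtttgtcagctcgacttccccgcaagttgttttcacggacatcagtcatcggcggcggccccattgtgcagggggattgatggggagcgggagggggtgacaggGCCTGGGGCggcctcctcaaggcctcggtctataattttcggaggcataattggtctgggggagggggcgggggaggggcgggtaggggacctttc
FGF7: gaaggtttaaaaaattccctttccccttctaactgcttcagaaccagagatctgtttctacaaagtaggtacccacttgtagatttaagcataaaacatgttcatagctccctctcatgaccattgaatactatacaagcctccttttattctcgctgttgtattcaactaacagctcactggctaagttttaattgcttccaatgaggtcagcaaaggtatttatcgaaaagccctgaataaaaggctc
FGFR2: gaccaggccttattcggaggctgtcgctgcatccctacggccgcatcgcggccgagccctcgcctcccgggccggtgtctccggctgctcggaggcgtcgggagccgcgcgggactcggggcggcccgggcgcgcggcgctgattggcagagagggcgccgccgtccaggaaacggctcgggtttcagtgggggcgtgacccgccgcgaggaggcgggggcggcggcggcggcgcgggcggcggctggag

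The FGF3 window holds 1 AP-2 motif, from base -96 to -88 before the start. The second SPRY1 window holds both motifs, ETS from -66 to -61 and AP-2 from -38 to -30, and the DUSP6 window holds the ETS motif from -62 to -57. None of these letters was found in the first SPRY1 window or in the printed windows of FGF5, FGF7 and FGFR2. Only for SPRY1 was a start after the first printed. The windows of FGF5 and FGFR2 that are not printed held neither motif. Across all 35116 windows of the same length, 19.8% held the AP-2 motif and 16.5% the ETS motif. Among the 67 windows of the FGF genes, 10 (14.9%) held the AP-2 motif, in FGF3, FGF11, FGF12, FGF14, FGF18, FGFR4, FLRT2, SPRED1, SPRY1 and SPRY2. The ETS motif was in 3 (4.48%), those of DUSP6, SPRY1 and FGF23. AP-2 motifs were in 4 of 23 windows of genes that were higher and in 2 of 11 windows of genes that were lower. A match of letters is a description and does not show that a factor binds there.

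The secreted ligands changed in makeup. FGF5, a ligand of the early epiblast, had 2 and 0 counts in WT. The libraries labelled knockout held 146 and 167, which is 7.48 and 7.65 CPM. The ratio was 134, with a 95% counting interval of 36.9 to 1115 (Clopper-Pearson, counting error only). The fitted log2 fold change of 6.91 became 6.0 without WT replicate 2 and 10.2 without WT replicate 1, when no WT count is left. That the genotypes lay apart was fixed in advance, since FGF5 reached the filter's minimum only in the libraries labelled knockout. FGF9, a ligand that signals between epithelium and mesenchyme in many organs, was at 1.45 and 1.19 CPM in WT and at 18.1 and 15.1 CPM in the libraries labelled knockout. This is a rise of 12.5-fold (log2 fold change 3.64, SE 0.19, adjusted p = 1.72e-09), with both libraries labelled knockout above both of WT. FGF2, the ligand commonly added to human stem cell cultures, was at 10.1 and 9.87 CPM in WT and at 17.7 and 12.5 CPM in the libraries labelled knockout. The log2 fold change of FGF2 was 0.59 (SE 0.16, adjusted p = 0.0103), and the knockout-labelled libraries differed more from each other than those of WT. Its call was lost without knockout replicate 1 (adjusted p = 0.116) and without WT replicate 1 (0.0529) or 2 (0.0592), all by edgeR. NUDT6, whose span overlaps 7.82% of that of FGF2 on the opposite strand, did not pass, with 6.76 CPM in WT and 7.63 CPM in those labelled knockout (whether reads were assigned by strand is unknown).

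FGF3 and FGF7, both of the FGF7 subfamily, were lower. FGF3, a ligand of the hindbrain and inner ear, was at 2.01 and 1.13 CPM in WT and at 0.205 and 0.137 CPM in the libraries labelled knockout, where it had 4.5 and 3 counts. The fitted difference was -3.17 on the log2 scale (SE 0.51). The genotypes could not overlap, since FGF3 reached the filter's minimum only in WT. FGF7, also known as keratinocyte growth factor, is made by mesenchyme and acts on epithelial cells. It fell from 5.03 and 6.46 CPM to 1.95 and 2.38 CPM, which is -1.40 on the log2 scale (SE 0.22, adjusted p = 0.000108), and the genotypes did not overlap. The FGF7 locus lies wholly within the span of FAM227B on the opposite strand, which did not pass (1.86 and 1.61 CPM). FGF10, another mesenchymal ligand of the same subfamily, was at 1.12 and 1.36 CPM against 0.922 and 1.008 CPM; the 95% interval of its log2 fold change ran from -1.07 to 0.36 and it did not pass.

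FGF18 of the FGF8 subfamily was at 0.783 and 1.19 CPM in WT and at 1.43 and 1.83 CPM in those labelled knockout; it did not pass (adjusted p = 0.0894, interval 0.02 to 1.44). The remaining 11 secreted ligands were too low to test. FGF4, FGF6 and FGF16 had 0 counts in every library. FGF1, FGF8, FGF17, FGF19, FGF21, FGF22 and FGF23 had at most 5.5 counts in any library, so changes in them were not detectable at this depth. FGF20, of the same subfamily as FGF9, had 0.5 counts in each WT library against 3 and 9 in the libraries labelled knockout.

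Levels can be set beside each other only per length, here as CPM per kb of transcript. The 18 secreted ligand genes summed to 5.93 and 5.71 CPM per kb in WT and to 10.8 and 9.70 CPM per kb in the libraries labelled knockout. In WT, FGF2 took 25.4% and 25.7% of that sum, FGF7 21.6% and 28.8%, and FGF3 29.6% and 17.3%, so these 3 ligands could not be ordered beyond their spread. In the libraries labelled knockout FGF9 took 39.7% and 36.9%, FGF2 24.4% and 19.1%, and FGF5 14.1% and 16.1%. The lead of FGF9 over FGF2 depends on the transcript lengths assumed, 4.22 kb for FGF9 and 6.71 kb for FGF2. Not divided by length, FGF9 was at 18.1 and 15.1 CPM there and FGF2 at 17.7 and 12.5 CPM. FGF9 held 5.81% and 4.94% of the WT sum. FGF3 made up 1.65% and 1.24% and FGF7 4.57% and 6.24% of the sum in the libraries labelled knockout. The WT share of FGF3 rests on 36 and 20.5 counts and an assumed length of 1.15 kb.

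**Figure D2:**
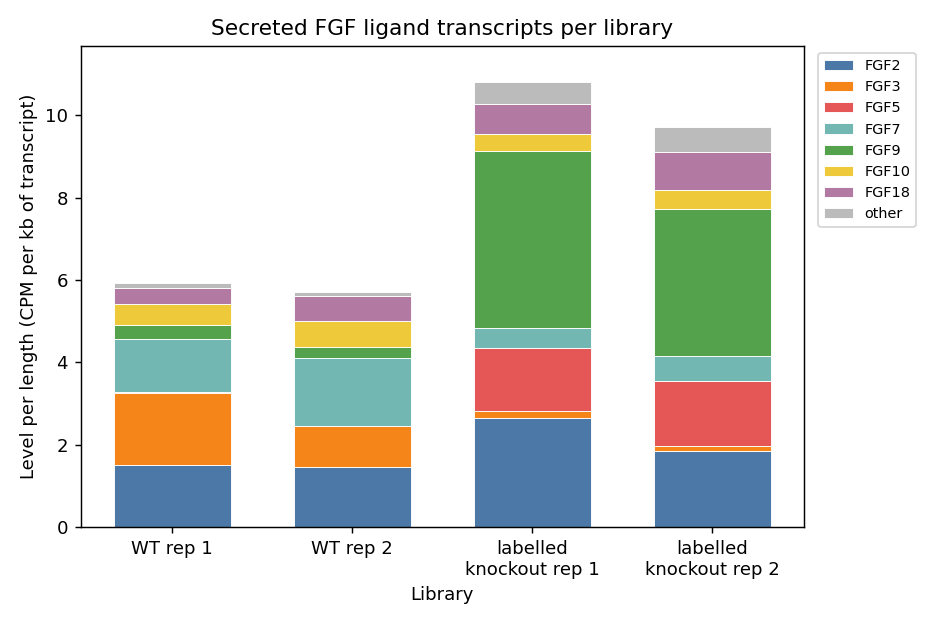
Level of each secreted FGF ligand gene in CPM per kb of transcript (vertical axis), stacked for each of the 4 libraries; "other" sums the 11 ligands too low to test. The green part, FGF9, grows from 5.81% and 4.94% of the WT columns to 39.7% and 36.9% of the columns labelled knockout, and the orange part, FGF3, shrinks.

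The FGF11 subfamily is homologous to the ligands but is not secreted; its proteins bind voltage-gated sodium channels inside the cell. FGF13 was at 17.4 and 17.0 CPM in WT and at 33.2 and 26.2 CPM in the libraries labelled knockout (log2 fold change 0.78, SE 0.12, adjusted p = 0.000106). FGF11 was at 9.62 and 8.34 CPM in WT and at 13.8 and 15.0 CPM in those labelled knockout (log2 fold change 0.68, SE 0.13, adjusted p = 0.000702). Both genes were thus higher in each knockout-labelled library than in either WT library. FGF12 did not pass (0.957 and 0.787 CPM, interval -1.16 to 0.56), and FGF14 had at most 2 counts in a library.

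Among the receptors, FGFR2 and FGFR3 fell, FGFRL1 rose, and FGFR1 and FGFR4 did not pass. FGFR2 is the receptor for FGF7 and FGF10 in epithelia, in a splice form that counts per gene cannot tell from the mesenchymal form. It was at 241 and 236 CPM in WT and at 106 and 94.0 CPM in the libraries labelled knockout, a fall of 2.39-fold (log2 fold change -1.26, SE 0.06, adjusted p = 6.80e-10). FGFR3, a receptor best known from cartilage and also present in epidermis, was at 84.7 and 75.0 CPM in WT and at 41.4 and 34.2 CPM in those labelled knockout (log2 fold change -1.08, SE 0.09, adjusted p = 3.64e-06). For both genes the libraries of the genotypes lay well apart. FGFR1, the receptor of early epiblast and mesenchyme, was at 311 and 299 CPM in WT and at 293 and 285 CPM in those labelled knockout; it did not pass (adjusted p = 0.21), with a 95% interval of the log2 fold change from -0.19 to 0.03. FGFR4 was at 18.1 and 16.6 against 15.2 and 14.1 CPM and did not pass either (adjusted p = 0.0825, interval -0.48 to -0.01). FGFRL1, a receptor that lacks the kinase domain, moved the other way. It rose from 32.2 and 30.3 CPM to 57.4 and 59.7 CPM (log2 fold change 0.90, SE 0.07, adjusted p = 1.29e-07).

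Per length, the 4 kinase receptors summed to 159.9 and 153 CPM per kb in WT and to 107 and 99.5 CPM per kb in the libraries labelled knockout. FGFR1 made up 40.8% and 41.0% of the WT sum and 57.6% and 60.05% of the sum in the libraries labelled knockout. The share of FGFR2 was 42.5% and 43.5% in WT and 28.0% and 26.6% in those labelled knockout, and that of FGFR3 was 12.6% and 11.6% against 9.20% and 8.14%. FGFR1 and FGFR2 were thus nearly level in WT, where their order depends on the transcript length assumed for each, whereas FGFR1 led by a wide margin in the libraries labelled knockout.

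**Figure D3:**
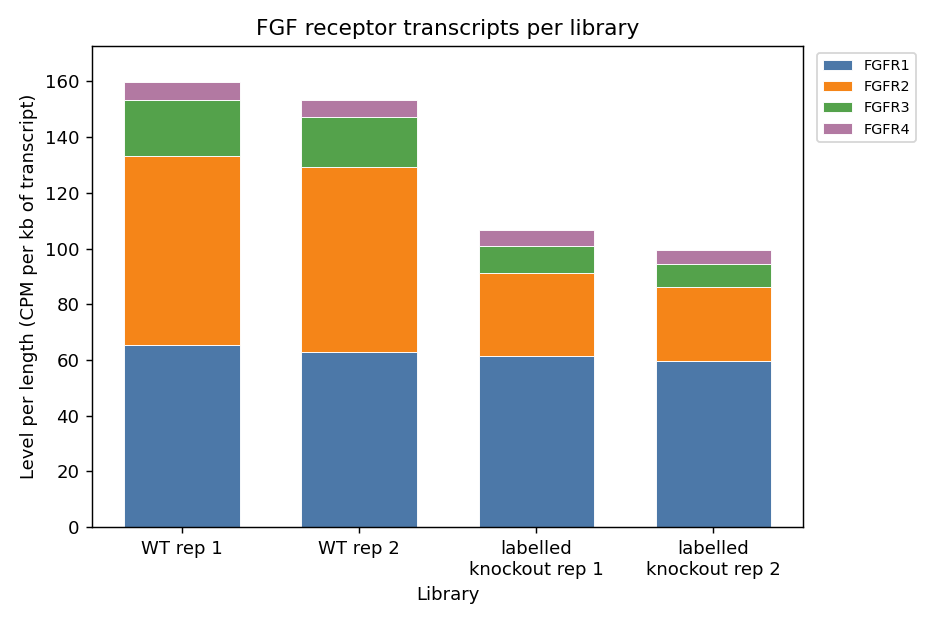
Level of the 4 kinase receptor genes in CPM per kb of transcript (vertical axis), stacked for each of the 4 libraries. The FGFR2 part is 42.5% and 43.5% of the WT columns and 28.0% and 26.6% of the columns labelled knockout, while the FGFR1 part is 40.8% and 41.0% against 57.6% and 60.05%.

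FLRT proteins are transmembrane proteins with leucine-rich repeats that bind FGF receptors. FLRT2 was at 151 and 147 CPM in WT and at 208 and 224 CPM in the libraries labelled knockout (log2 fold change 0.53, SE 0.05, adjusted p = 1.82e-06), without overlap. FLRT3, which is induced by FGF signalling in other vertebrate embryos, was at 239 and 267 CPM against 239 and 210 CPM and did not pass (adjusted p = 0.0749). FLRT1 was at 3.69 and 4.08 against 4.51 and 6.51 CPM and did not pass (adjusted p = 0.0619). Both lie inside larger genes on the opposite strand that fell: MACROD2, around FLRT3, went from 10.1 to 5.09 CPM (edgeR adjusted p = 0.000211) and MACROD1, around FLRT1, from 22.4 to 15.5 CPM (0.000788). FLRT3 passed without WT replicate 1 (adjusted p = 0.0279) or knockout replicate 1 (0.0128), and FLRT1 passed without knockout replicate 1 (0.0121). KLB, the co-receptor for the endocrine FGFs, had at most 16 counts in a library and was not tested.

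The feedback inhibitors split. Of 11 genes, 10 were tested, 5 were higher and 2 lower, against 21.9% higher and 22.3% lower of all genes, so that the lower share was close to the background. DUSP6, the cytoplasmic phosphatase that inactivates ERK and is widely used as a readout of FGF signalling, showed the largest rise. It was at 6.71 and 5.67 CPM in WT and at 29.4 and 23.8 CPM in the libraries labelled knockout, 4.29-fold higher (log2 fold change 2.10, SE 0.14, adjusted p = 2.38e-08). DUSP4, a nuclear phosphatase of ERK and related kinases, rose from 11.1 and 11.0 CPM to 18.2 and 15.3 CPM (log2 fold change 0.60, SE 0.12, adjusted p = 0.0012). DUSP5, another nuclear ERK phosphatase, went the other way, from 2.46 and 2.38 CPM to 1.13 and 0.733 CPM (log2 fold change -1.39, SE 0.30, adjusted p = 0.00175). In each of these 3 genes the genotypes did not overlap. IL17RD, a membrane inhibitor of FGF signalling also called SEF, was at 61.0 and 67.0 against 57.8 and 64.2 CPM and did not pass (interval -0.23 to 0.09).

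The Sprouty genes also moved in both directions. SPRY1 was at 4.19 and 5.22 CPM in WT and at 12.7 and 13.3 CPM in the libraries labelled knockout, 2.77-fold higher (log2 fold change 1.47, SE 0.15, adjusted p = 2.67e-06). SPRY4 was at 1.29 and 1.47 CPM in WT and at 2.97 and 2.84 CPM in those labelled knockout (log2 fold change 1.07, SE 0.25, adjusted p = 0.0032); with DESeq2 its adjusted p was 0.0774. SPRY2, which had the highest level of the 4 per length in WT, fell from 42.1 and 44.8 CPM to 20.7 and 23.6 CPM (log2 fold change -0.97, SE 0.09, adjusted p = 4.55e-07). The libraries of the genotypes lay apart for all of the 3 genes. SPRY3 had 1 count in each WT library and 0 in the others. Per length, SPRY2 was at 18.03 and SPRY1 at 1.94 CPM per kb in WT, against 9.20 and 5.36 CPM per kb in the libraries labelled knockout, so SPRY2 stayed above SPRY1.

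The SPRED proteins, relatives of Sprouty that recruit neurofibromin to RAS, had 1 of 3 genes past the threshold. SPRED1 was at 35.2 and 37.2 CPM in WT and at 45.8 and 42.1 CPM in the libraries labelled knockout (log2 fold change 0.28, SE 0.07, adjusted p = 0.00702). This call was lost with DESeq2 (adjusted p = 0.0658) and without WT replicate 1 (0.0918) or knockout replicate 1 (0.0614). SPRED2 was at 48.7 against 48.2 CPM (interval -0.17 to 0.14) and SPRED3 at 4.98 against 6.73 CPM (interval 0.05 to 0.81, adjusted p = 0.0635), and neither passed; SPRED3 passed without knockout replicate 2 (0.049).

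The 3 ETS factors of the PEA3 group, which are transcribed in response to FGF signals, did not move together. ETV1 was at 8.39 and 10.4 CPM in WT and at 15.7 and 14.5 CPM in the libraries labelled knockout (log2 fold change 0.68, SE 0.14, adjusted p = 0.000926). ETV4 was at 1.79 and 1.25 CPM in WT and at 0.563 and 0.825 CPM in those labelled knockout (log2 fold change -1.11, SE 0.36, adjusted p = 0.0231). The ETV4 call was lost with DESeq2 (adjusted p = 0.224), with the replicate number as a block (0.0544), and without WT replicate 1 (0.212) or knockout replicate 1 (0.157). ETV5 was at 3.69 and 3.06 against 3.69 and 2.98 CPM, with overlapping genotypes (interval -0.48 to 0.44).

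**Figure D4:**
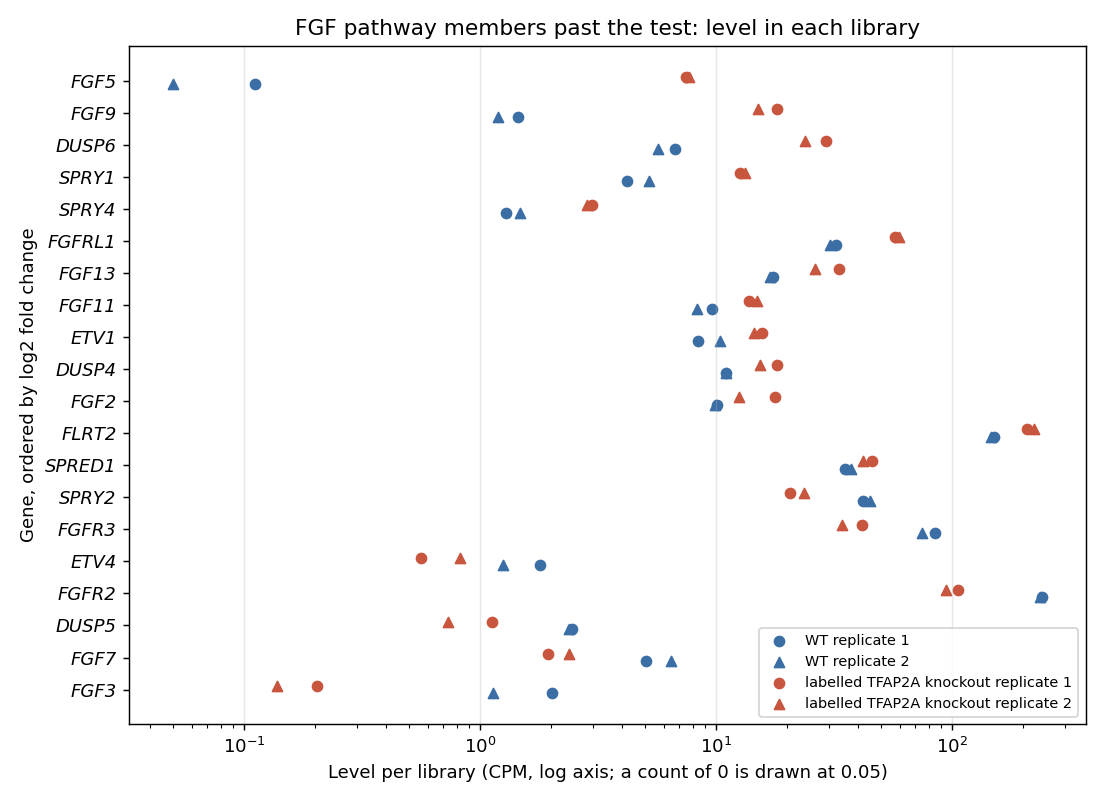
CPM in each library (horizontal log axis; a count of 0 is drawn at 0.05) of the 20 FGF pathway genes that passed the test, ordered by fold change, with colours for the genotype and symbols for the replicate. The libraries of the genotypes do not overlap for any of the 20, and the gap is widest for FGF5, with 2 and 0 counts in WT. For FGF5 and FGF3 the filter fixed this in advance. Among genes that did not pass, FGFR1, FGFR4, FLRT1, FLRT3, FGF10, FGF18 and SPRED3 do not overlap either. The share over all genes was not counted, so a lack of overlap does not back a call.

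Other genes of the pathway were counted from lists written with the members. Of 23 adaptor and RAS-ERK cascade genes, all tested, 3 were higher, 5 lower and 15 did not pass (34.8% called, against the 44.2% of all genes). GAB2, an adaptor that amplifies RAS and PI3 kinase signals, fell from 226 and 234 to 100 and 95.9 CPM (log2 fold change -1.23, SE 0.05, adjusted p = 2.48e-10). The other 7 changed by less: GAB1 by -0.34, MAP2K1 by -0.31, SOS1 by -0.21 and MAPK3 by -0.19 on the log2 scale, and RASA1 by 0.27, PTPN11 by 0.19 and CBL by 0.18. SOS1, MAPK3, RASA1, PTPN11 and CBL were named after their values were seen. The count of higher genes in this list was 0 without WT replicate 1 and 1 without knockout replicate 1.

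Of 29 tested genes of heparan sulfate and FGF binding, 11 were higher, 9 lower and 9 did not pass (69.0% called). GPC4, a glypican carrying heparan sulfate on the cell surface, rose from 2.85 and 1.93 CPM to 26.2 and 25.7 CPM (log2 fold change 3.43, SE 0.16, adjusted p = 3.97e-10). FGFBP3, which encodes a secreted FGF-binding protein, rose from 6.32 and 8.28 to 26.8 and 23.7 CPM (log2 fold change 1.79, adjusted p = 7.72e-08). NDST4, an enzyme that sulfates heparan chains, was at 0.447 and 0.397 CPM in WT and at 1.84 and 1.10 CPM in the libraries labelled knockout, the only ones in which it reached the filter's minimum. Without it, 10 of 28 genes of this list were higher.

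Of 17 tested ERK early response genes, 2 were higher, 2 lower and 13 did not pass (23.5% called, against the 44.2% of all genes). CCND1, which encodes cyclin D1, rose from 15.3 and 15.8 to 104 and 105 CPM (log2 fold change 2.74, SE 0.07, adjusted p = 1.73e-12). The receptor gene EPHA2 rose from 18.2 and 13.4 to 38.2 and 45.6 CPM (log2 fold change 1.40, adjusted p = 9.05e-05). PHLDA1 fell from 117 and 123 to 30.1 and 32.5 CPM (log2 fold change -1.93, adjusted p = 2.99e-11). The immediate early gene EGR1, named after its values were seen, fell from 3.13 and 3.29 to 2.15 and 1.88 CPM (adjusted p = 0.0267), and 1 lower gene in place of 2 was left with DESeq2, with the replicate block and without either WT replicate. FOS, JUN and MYC did not pass.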

How the data were processed

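The authors deposited 1 table of estimated counts per gene, in steps of 0.5 (37.0% of values were not whole). TopHat, HOMER and DESeq2 appear without versions, and hg38 as the build, per the submitters' processing notes; annotation, counting settings and strand use were not given in the sources used here. Of 23019 genes, 4.32% lay within 2000 bp of where GRCh38 places them, and 42 rows are on contigs named as in hg19, so no table coordinates are printed. Groups came from the genotype label, and columns were matched to libraries by the genotype in their names and the replicate number.

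Values were rounded to whole numbers, filtered with filterByExpr (15643 genes left) and scaled with TMM. The test was that of edgeR 4.0.16 (glmQLFTest after a robust glmQLFit) on genotype alone in R 4.3.3. It was also run on counts simulated from its own fit, which checks the code and cannot tell whether the replicates are technical. CPM use TMM-adjusted library sizes. Standard errors are the log2 fold change over the square root of F. Lengths for CPM per kb are the median of GENCODE v29 coding transcripts matched to RefSeq, or of all coding transcripts where none matched, and may differ from the isoforms in these cells. Total counts per library and the count limit are given with the results.

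The replicates differed by more than sampling noise (chi-square per degree of freedom 4.31 for WT, 4.16 for the knockout label). By rule, values in each library are given for all FGF genes that passed and averaged 1 CPM or more in either genotype; those of 8 FGF genes that did not pass were added after their values were seen; of each other pathway list, the 3 largest changes on the same terms were named. Pathway and marker lists were matched by symbol, 1 of them by an older symbol. The genes and lists were chosen with earlier results of these data known. Alternatives were other scaling factors, filters, rounding and dispersion settings, DESeq2 1.42.0, limma-voom (limma 3.58.1), a replicate block, and leaving out each library, where the lone library left is assumed to vary like those of the other genotype.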

Additional observations from a re-analysis of the deposited data

How the results depend on the processing

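Among the 20 FGF genes that passed, 16 kept their call and direction in all 13 alternatives, 4 lost the call in at least 1 (FGF2, SPRED1, SPRY4 and ETV4) and none reversed. The 16 include FGF5 and FGF3, which reached the filter's minimum in a single genotype and so had to differ. The size of the FGF5 difference ran from 6.0 to 10.2 on the log2 scale over these alternatives. The 13 higher and 7 lower FGF genes became 11 and 6 with DESeq2, 15 and 8 with no low count filter (FGF20, FLRT1 and FLRT3 were added), 13 and 6 with the replicate block, and 11 to 14 and 7 to 7 when a library was left out. Replicate numbers do not pair the samples by any label; the deviations of same-numbered libraries had a correlation of -0.05 over genes, and the block lowered the number of higher genes in the whole table from 3427 to 3050 and of lower ones from 3492 to 3154. DESeq2 called 2263 genes higher and 2435 lower, and leaving out a library gave 2535 to 2922 higher and 2697 to 2919 lower. The median of all genes moved by less than 0.1 on the log2 scale under each scaling.

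In the adaptor and RAS-ERK list, the 5 lower genes became 3 with DESeq2 and 3 to 4 without a library, and the 3 higher ones 0 to 3 without a library. In the ERK early response list, the 2 lower genes became 1 with DESeq2, 1 with the replicate block and 1 to 2 without a library; the cause was not tested. 4 FGF genes that did not pass changed sign. SPRED2 had a log2 fold change of 0.0016 with upper quartile factors and ran from -0.083 to 0.056 when a library was left out; these ranges were -0.14 to 0.0072 for IL17RD, -0.18 to 0.13 for ETV5 and -0.79 to 0.10 for FGF12. The depth limits 14 of the 45 genes, which were too low to test.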

Other observations

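The genes nearest to the FGF genes moved with them at some loci and against them at others. Of the 10 tested genes nearest to FGF5 on chromosome 4 (5 on each side, over 3.65 Mb), 8 were higher in the libraries labelled knockout, 1 was lower and 1 did not pass, with a median log2 fold change of 0.58; across all genes tested 21.9% were higher. They were BMP2K, PAQR3, LINC01088, ANTXR2, PRDM8, BMP3, PRKG2, RASGEF1B, HNRNPD and HNRNPDL. FGF2 and SPRY1 lie 499 kb apart on the same chromosome with 1 gene of the table between them, and both were higher. Of the 10 genes nearest to SPRY1, FGF2 among them, 6 were higher and 0 lower (median log2 fold change 0.57). FGF9 on chromosome 13 had 2 higher and 1 lower gene among its nearest 10. Around other genes that were higher the counts went the opposite way, with 0 higher and 5 lower for ETV1, 1 and 6 for FGF11, and 0 and 3 for FGFRL1. SPRY2, which was lower, had 5 higher and 2 lower neighbours. FGFRL1 and FGFR3 lie 774 kb apart on chromosome 4 and moved in opposite directions. These neighbourhoods were looked at after the values were seen, and no test was made of them.

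Glypican genes side by side on the X chromosome also moved in opposite directions. GPC4 rose from 2.39 ± 0.653 to 25.9 ± 0.394 CPM (SD, n = 2), while GPC3 fell from 3079 ± 3.68 to 1432 ± 129 CPM (edgeR, adjusted p = 4.80e-09). HSPG2, which encodes the basement membrane heparan sulfate proteoglycan perlecan, fell from 1915 ± 257 to 641 ± 24.1 CPM (adjusted p = 9.34e-07). GPC3 and HSPG2 were chosen after their values were seen.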
